A study of Arabidopsis thaliana with 16 samples.

Results

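EIN2, EIN3, EIL1, EIN5, ETP1 and ETP2 are 6 Arabidopsis thaliana genes that carry the ethylene signal from the endoplasmic reticulum to the nucleus or set how much of the carriers a cell keeps. They were taken by gene identifier, and all 6 occur among the 10057 genes that the authors' deposited tables list in at least 1 of 3 comparisons. The RNA libraries, 2 per line and all from air, came from 3 transgenic lines, EIN2C-EIN3DB, EIN2C-EIN3DBK245N and EIN2S645A, each built in ein3-1 eil1-1, where EIN3 and EIL1 are both mutated. Each was set against Col, whose libraries are not among the samples and whose treatment no label gives. Chromatin of EIN2C-EIN3DB seedlings was immunoprecipitated (ChIP) with antibody to EIN2, in ein3-1 eil1-1 (2 libraries in ethylene and 2 in air) and in Col-0 (1 library titled ethylene and 1 titled air). Whole seedlings were 3 days old, grown in the dark at 24 °C and treated for 4 h with 10 ppm ethylene or with air. The labels do not say which promoter drove each transgene, how many independent lines there were or whether replicates were separate cultures, and no untransformed ein3-1 eil1-1 sample is among them. Some labels conflict. For Col-0, the libraries titled air name ethylene as the agent, and the input titled ethylene names ein3-1 eil1-1 as the genotype. The S645A line is called EIN2 in its titles, EIN2C in the series design and carries another residue number in its genotype field. Titles were followed throughout.

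EIN2 is an endoplasmic reticulum membrane protein. In air the kinase CTR1 phosphorylates it, and when ethylene is perceived its carboxyl-terminal part, EIN2C, is cut free and reaches the nucleus. There it acts with the transcription factors EIN3 and EIL1, which switch on the ethylene response. The pathway is controlled largely by protein removal: the F-box proteins ETP1 and ETP2 target EIN2, and the F-box proteins EBF1 and EBF2 target EIN3 and EIL1. EIN5 (named XRN4 in the gene table) is a cytoplasmic exoribonuclease that degrades RNA from the 5′ end and limits EBF1 and EBF2 mRNA. The name EIN2C-EIN3DB stands for a fusion of EIN2C with the part of EIN3 that binds DNA. K245N is a substitution in that part, also known from a loss-of-function allele of EIN3, and S645A removes a serine of EIN2 that CTR1 phosphorylates.

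Among the 6 genes, EIN2, EIN3 and EIL1, the ones mutated or carried in a transgene, had the largest decreases. EIL1 was lower in all 3 lines, EIN3 in EIN2C-EIN3DB and EIN2S645A, and EIN2 in EIN2C-EIN3DB alone. The turnover genes ETP1 and EIN5 were listed only in EIN2S645A, and ETP2 only in EIN2C-EIN3DBK245N. EIN5 and ETP2 were lower by 2.07-fold and 2.05-fold, close to the 2-fold minimum of the authors' deposited tables, and ETP1 by 2.47-fold. Of the 18 possible entries (6 genes in 3 tables), 9 were listed, 9 as lower and 0 as higher. A gene absent from a table missed 1 or more of the authors' limits, which were a minimum fold of 2, a minimum level of 1 and a q-value (adjusted p-value) below 0.05. The level limit is known only from the tables' names and does not hold for the line, since 137 to 225 genes per table are listed with a line level of 0. Its value is not given there, so absence does not show that it was unchanged, and whether the lines differed from each other was not tested. In RNA of whole seedlings, fewer cells that express a gene and less RNA per cell cannot be told apart.

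EIL1 (AT2G27050, chromosome 2, 11545753 to 11548293, TAIR10) encodes the closest relative of EIN3. In the authors' deposited table its level was 10.7 FPKM (a level scaled for transcript length and sequencing depth) in EIN2C-EIN3DB, which was 13.8% of the Col level, or log2 -2.86 (Cuffdiff q = 0.000185). In the authors' deposited table for EIN2C-EIN3DBK245N, EIL1 had 9.33 FPKM, 16.0% of Col and log2 -2.65 (Cuffdiff q = 0.000315). In the authors' deposited table for EIN2S645A, EIL1 had 7.89 FPKM, 13.1% of Col and log2 -2.93 (Cuffdiff q = 0.000224). EIL1, the only member listed in all 3 lines, was thus between 6.26-fold and 7.63-fold lower in the authors' deposited tables. All 3 comparisons share Col, so an error in its value would enter all of them. Among genes listed as lower, 9.42%, 13.8% and 11.4% had a fold as low as that of EIL1 or lower in EIN2C-EIN3DB, EIN2C-EIN3DBK245N and EIN2S645A in the authors' deposited tables.

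EIN3 (AT3G20770, chromosome 3, 7260432 to 7263352, TAIR10) encodes the transcription factor whose DNA binding part is in both fusions. In the authors' deposited table it had 7.88 FPKM in EIN2S645A, 6.38% of Col or log2 -3.97 (Cuffdiff q = 0.000224). In EIN2C-EIN3DB the authors' deposited table gives 38.2 FPKM, 24.0% of Col or log2 -2.06 (Cuffdiff q = 0.000185). In EIN2C-EIN3DBK245N EIN3 was not listed. The lowest EIN3 fold therefore stood in the line whose name holds no EIN3 part, at 15.7-fold lower, against 4.17-fold lower in EIN2C-EIN3DB, in the authors' deposited tables. Reads of the fusion's EIN3 part and of the resident ein3-1 allele cannot be told apart in a gene-level value.

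EIN2 (AT5G03280, chromosome 5, 787428 to 793356, TAIR10) contributes to all 3 transgenes by name. In the authors' deposited table it had 43.6 FPKM in EIN2C-EIN3DB, 36.8% of Col or log2 -1.44 (Cuffdiff q = 0.000185). It was not listed in EIN2C-EIN3DBK245N or EIN2S645A. The EIN2 fold was close to the median of all genes listed as lower in that line, log2 -1.41. Here too the resident gene and the transgene cannot be told apart.

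Among the turnover genes, ETP1 (AT3G18980, chromosome 3, 6546463 to 6548062, TAIR10) had 6.38 FPKM in EIN2S645A, 40.5% of Col or log2 -1.30 (Cuffdiff q = 0.00313), in the authors' deposited table. EIN5 (AT1G54490, chromosome 1, 20350191 to 20356916, TAIR10) had 6.33 FPKM in EIN2S645A, 48.3% of Col or log2 -1.05 (Cuffdiff q = 0.000963), in the authors' deposited table. ETP2 (AT3G18910, chromosome 3, 6521719 to 6523043, TAIR10) had 3.66 FPKM in EIN2C-EIN3DBK245N, 48.8% of Col or log2 -1.04 (Cuffdiff q = 0.0461), in the authors' deposited table. EIN5 and ETP2 stood just inside the fold limit, and ETP2 just inside the q limit as well. Folds were also centred on the median of all listed genes. Listed folds skip the range between log2 -1 and 1, and slightly more were lower than higher. That median therefore lies near -1, and subtracting it brings any member near the fold limit close to no change by construction. EIN5 then stood at log2 0.061, and EIN2, ETP1 and ETP2 at -0.43, -0.20 and -0.019, so no conclusion is drawn from these values. Centred on the midpoint of the higher and lower medians, chosen after seeing the data, EIN5, EIN2, ETP1 and ETP2 stood at -1.16, -1.54, -1.42 and -1.06. Most genes called lower had a larger decrease: 96.1% of them were as low as EIN5 or lower in EIN2S645A, 76.0% were as low as ETP1, and 94.0% were as low as ETP2 in EIN2C-EIN3DBK245N. ETP1 and ETP2 lie 23419 bp apart with 9 annotated genes between them, of which 0 were listed in EIN2C-EIN3DBK245N, 2 in EIN2C-EIN3DB (1 higher, 1 lower) and 3 in EIN2S645A (1 higher, 2 lower).

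**Figure D1:**
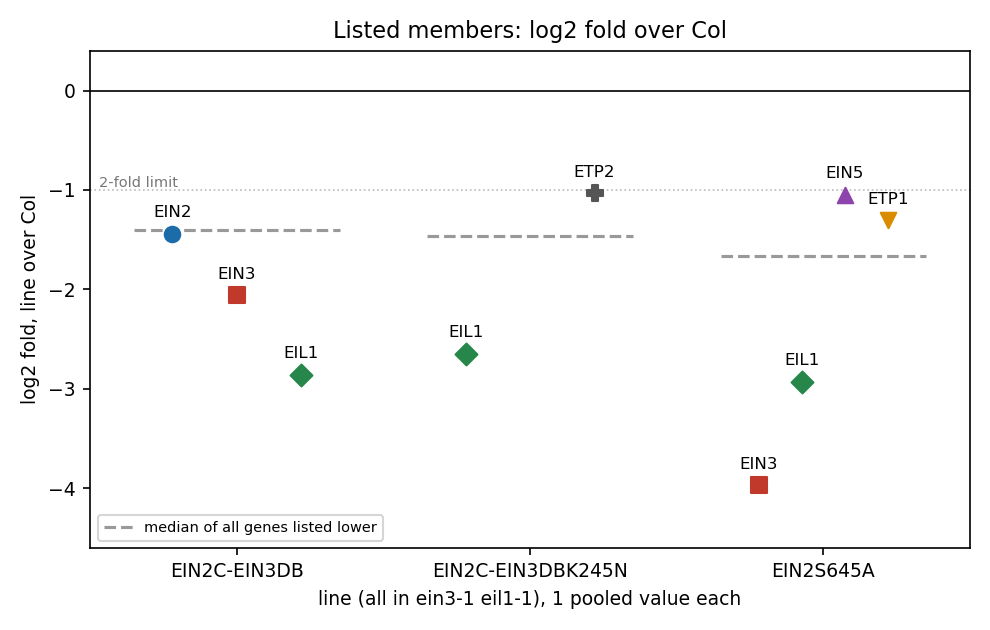
Log2 fold of each listed member, line over Col, in the 3 lines (1 authors' value per point, replicates pooled, no error available). All 9 points lie below 0; EIL1 stands between -2.65 and -2.93 in every line, EIN3 is lowest in EIN2S645A at -3.97, and EIN5 and ETP2 lie next to the dotted 2-fold limit. The dashed bar is the median of all genes listed as lower in that line.

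The background of these counts is the 27444 nuclear genes annotated as protein-coding, whether or not they are expressed, since how many genes the authors tested is not known here. In EIN2C-EIN3DB, 3 of 6 members were lower, against 9.7% of genes, and 0 were higher, against 9.93%. In EIN2C-EIN3DBK245N, 2 of 6 were lower, against 6.33%, and 0 were higher, against 6.41%. In EIN2S645A, 4 of 6 were lower, against 13.9%, and 0 were higher, against 11.8%. The median fold of the listed members was log2 -2.06, -1.84 and -2.12 in these lines, against -1.41, -1.46 and -1.67 for all genes listed as lower in the authors' deposited tables. Members entered a table only by passing the fold limit, so these medians describe the listed entries. The lines were built with EIN3 and EIL1 mutated and with parts of EIN2 or EIN3 in transgenes. In EIN2C-EIN3DB the members listed were EIN2, EIN3 and EIL1, with none of the turnover genes. Turnover genes were ETP2 beside EIL1 in EIN2C-EIN3DBK245N, and ETP1 and EIN5 beside EIN3 and EIL1 in EIN2S645A. How far the way the lines were built sets these counts and medians above the shares of all genes was not tested.

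Within a table, FPKM values are scaled per length of the annotated gene and can be set side by side for genes read over that length. This does not hold for EIN2 and EIN3 in EIN2C-EIN3DB, where the fusion carries only a part of each. There the deposited value of EIN2 was 1.14 times that of EIN3 and 4.08 times that of EIL1, which does not compare the levels of the resident genes. In EIN2C-EIN3DBK245N the level of EIL1 was 2.55 times that of ETP2. In EIN2S645A the order was EIL1, EIN3, ETP1 and EIN5, the level of EIL1 being 1.25 times that of EIN5. With replicates pooled, no spread can be placed on these orders.

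The 3 genes nearest in fold were found for each member among genes listed in the same tables. Of 1973 other genes listed in all 3 tables, AT5G23600 was closest to EIL1, with no log2 fold more than 0.124 away, followed by OTP86 and AT1G65920 within 0.310 and 0.313. For EIN3, among 1652 genes listed in the same 2 tables, the closest were chr31 (AT1G05490), AT1G77460 and AT3G62200, within 0.302, 0.363 and 0.368. For members listed in 1 table, only 1 fold defined the match, and the closest 3 were never more than 0.00261 away. They were AT1G29430, PUP18 and AT5G49800 for EIN2, and AT1G31780, AT3G22270 and AT3G52950 for EIN5. For ETP1 they were ABCG19, AT2G30100 and AT5G45760, and for ETP2 AT2G17240, AER and IQD23. Of the 10 nearest genes of EIL1 along the chromosome, 3 were lower and 1 higher in EIN2C-EIN3DB, 2 and 1 in EIN2C-EIN3DBK245N, and 3 and 3 in EIN2S645A. Those of EIN3 held 0 lower and 3 higher, 0 and 4, and 1 and 2 in the same order of lines, and those of EIN2 held 0 and 2, 0 and 2, and 1 and 2. Over all genes the shares were 9.7% lower and 9.93% higher in EIN2C-EIN3DB, 6.33% and 6.41% in EIN2C-EIN3DBK245N, and 13.9% and 11.8% in EIN2S645A.

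The rest of the pathway was described with a list of 46 genes in 6 roles. In EIN2C-EIN3DB 8 were lower and 2 higher, in EIN2C-EIN3DBK245N 8 and 2, and in EIN2S645A 16 and 4. The share listed in either direction was 21.7%, 21.7% and 43.5%, against 19.6%, 12.7% and 25.7% of all protein-coding nuclear genes. By direction, 9.7%, 6.33% and 13.9% of all these genes were lower, and 9.93%, 6.41% and 11.8% were higher, in the same order of lines. Every listed perception gene was lower, 4 of 8 in each fusion line and 6 of 8 in EIN2S645A, with 0 higher. The receptor genes ERS2 and ERS1 stood at log2 -4.17 and -3.29 in EIN2S645A, at -3.92 and -2.15 in EIN2C-EIN3DB, and at -3.87 and -2.03 in EIN2C-EIN3DBK245N in the authors' deposited tables. The receptor gene ETR2 was listed only in EIN2C-EIN3DB, at log2 -5.57, the largest decrease on the pathway list, in the authors' deposited table. These folds rest on low line levels, 0.607 FPKM for ETR2 and between 1.38 and 2.11 FPKM for ERS2 over the 3 lines. EIN4 and ETR1, also receptor genes, and RAN1, a copper transporter gene, were listed only in EIN2S645A, and the authors' deposited table puts them at log2 -2.03, -1.77 and -2.30. RTE1, whose product acts together with ETR1, was listed only in EIN2C-EIN3DBK245N at log2 -1.74 in the authors' deposited table. CTR1, which encodes the kinase that acts on EIN2, stood at log2 -1.26, -1.16 and -1.59 in EIN2C-EIN3DB, EIN2C-EIN3DBK245N and EIN2S645A in the authors' deposited tables.

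Of 7 genes of ubiquitin turnover, 2 were lower and 1 higher in each fusion line, and 2 were lower and 2 higher in EIN2S645A. These are 42.9%, 42.9% and 57.1% of the group listed in EIN2C-EIN3DB, EIN2C-EIN3DBK245N and EIN2S645A. The shares of all protein-coding nuclear genes were 19.6%, 12.7% and 25.7%. EBF2 was at log2 -3.30 in EIN2C-EIN3DB, -3.30 in EIN2C-EIN3DBK245N and -1.57 in EIN2S645A in the authors' deposited tables. EBF1 was at log2 -1.34 and -1.88 in EIN2C-EIN3DB and EIN2C-EIN3DBK245N in the authors' deposited tables and was not listed in EIN2S645A. RBX1, a RING subunit shared by many cullin ubiquitin ligases, was higher in all 3, by log2 1.44, 1.07 and 2.59 in EIN2C-EIN3DB, EIN2C-EIN3DBK245N and EIN2S645A in the authors' deposited tables. The SKP1 homologue gene ASK1 was higher in EIN2S645A, by log2 1.67, and COP1 was lower there, at log2 -1.10, in the authors' deposited table. Of the 4 further EIN3 family genes, AT5G10120 alone was listed, at log2 -4.01 with 0.453 FPKM in EIN2S645A in the authors' deposited table. Its Cuffdiff q was 0.0473, just inside the q limit. This 1 of 4 is a share near the 25.7% of all genes listed in EIN2S645A in either direction.

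Among 6 chromatin genes, 2 were lower in EIN2C-EIN3DB, 1 in EIN2C-EIN3DBK245N and 2 in EIN2S645A. None was higher. These are 33.3%, 16.7% and 33.3% of the group, against 9.7%, 6.33% and 13.9% of all genes listed as lower. The shares of all genes listed in either direction were 19.6%, 12.7% and 25.7%. HAC1, a histone acetyltransferase gene, stood at log2 -1.46 in EIN2C-EIN3DB and -2.12 in EIN2S645A in the authors' deposited tables. REF6, a histone demethylase gene, stood at log2 -1.16 in EIN2C-EIN3DB and -1.18 in EIN2S645A, and AT3G11100 at -1.01 in EIN2C-EIN3DBK245N, in the authors' deposited tables. Among 12 genes of mRNA decay and translation, to which EIN5 is related by function, 0 were listed in either fusion line and 3 of 12 were lower in EIN2S645A, a share near the 25.7% of all genes listed there in either direction. The exoribonuclease gene XRN2 stood at log2 -1.42 and the decapping gene VCS at -1.02 there in the authors' deposited table. Of 9 genes tied to protein stability and phosphorylation, 1 was listed in EIN2C-EIN3DB, 2 in EIN2C-EIN3DBK245N and 4 in EIN2S645A. These are 11.1%, 22.2% and 44.4% of the group, against 19.6%, 12.7% and 25.7% of all genes listed in either direction. MKK9, a MAP kinase kinase gene, was higher in EIN2S645A by log2 2.12 and MPK6 by 1.12 in the authors' deposited table. EER5 was higher in EIN2C-EIN3DB by log2 1.40 and in EIN2C-EIN3DBK245N by 1.79 in the authors' deposited tables. In the same role AT1G75140 stood at log2 -1.90 in EIN2S645A and AT1G19370 at -1.40 in EIN2C-EIN3DBK245N and -1.39 in EIN2S645A in the authors' deposited tables.

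**Figure D2:**
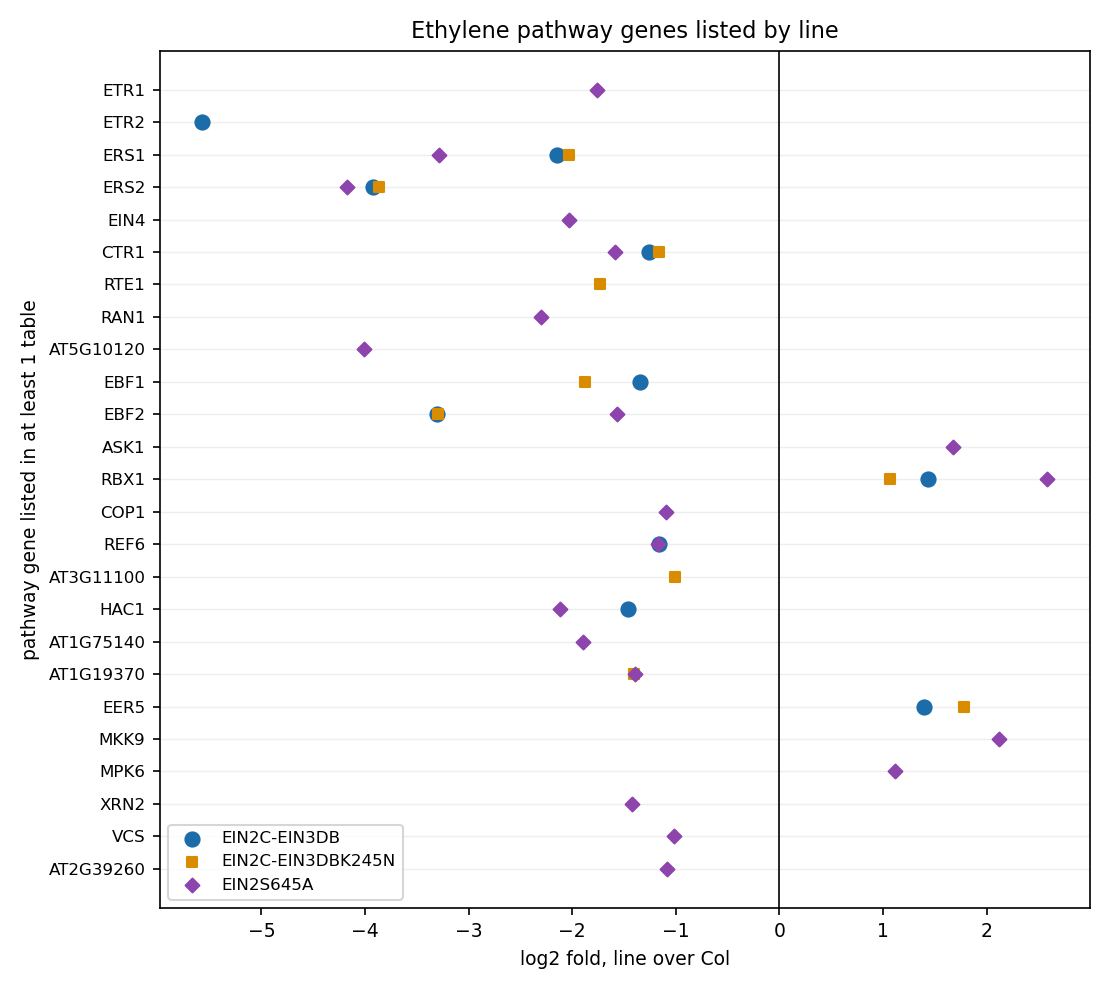
Log2 fold, line over Col, of the pathway genes that the authors list in at least 1 table, ordered by role from receptors at the top to mRNA decay at the bottom. Receptor genes, CTR1 and EBF1 or EBF2 stand left of 0 wherever they are listed, and RBX1, ASK1, EER5, MKK9 and MPK6 stand right of 0.

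In the ChIP data, peaks were found at EIN2 and at EIN3 in all 6 libraries, although some in ein3-1 eil1-1 stood near the authors' MACS2 p-value limit of 0.001. No q-value limit was applied. In ein3-1 eil1-1 the MACS2 -log10 q of the EIN3 peak was 0.158 in ethylene replicate 1 and 0.160 in air replicate 2. The lowest among EIN2 peaks was 0.047, in ein3-1 eil1-1 ethylene replicate 2. EIL1, EIN5 and ETP2 each had a peak within 1000 bp in 1 library, and ETP1 in 0. Each library had a peak over 1 shared stretch inside EIN2 and 1 inside EIN3, and Col-0 also had peaks outside the EIN2 gene (ethylene) and elsewhere in EIN3 (air). In ein3-1 eil1-1 all EIN2 and EIN3 peaks had a fold enrichment below their library's median. The ChIP libraries kept between 3743192 and 10515608 tags after duplicate removal, and the authors called at most 275 peaks in each ein3-1 eil1-1 library, 1510 in Col-0 ethylene and 841 in Col-0 air. Scores of peaks below are the authors' own, given against each library's input.

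EIN2 had 23 peaks inside the gene over the 6 libraries. There were 5 and 4 in the ein3-1 eil1-1 ethylene replicates, 4 and 4 in the air replicates, 3 in Col-0 ethylene and 3 in Col-0 air. All lay between 791067 and 793036 on chromosome 5 (TAIR10), a span of 1970 bp that makes up 33.2% of the gene. The first 3639 bp from the low-coordinate end held no peak in any library. The gene table used here has no strand, so the end that holds the start of transcription is not stated. A stretch of 62 bp, 792161 to 792222, was inside a peak in all 6 libraries. In ein3-1 eil1-1 ethylene replicate 1 the peak over it had a MACS2 -log10 p of 3.48, near the limit.

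The fold enrichment of these EIN2 peaks over local input was low in ein3-1 eil1-1. It ran from 1.81 to 2.35 and from 1.68 to 2.15 in the ethylene replicates, and from 1.61 to 2.34 and from 1.57 to 1.92 in the air replicates. The median over all peaks was 2.72 and 2.74 in those ethylene libraries and 2.40 and 2.39 in those air libraries. In Col-0 the EIN2 peaks ran from 2.87 to 4.93 in ethylene and from 2.17 to 3.46 in air, where the medians over all peaks were 3.06 and 3.12. The strongest was the 1012 bp peak at 791067 to 792078 in Col-0 ethylene, with a -log10 p of 12.7. With 1 library per treatment, the Col-0 difference has no replicate check. In ein3-1 eil1-1 the ranges of ethylene and air overlapped, and 2 of 5 peaks of ethylene replicate 1 and 4 of 4 of air replicate 1 overlapped a peak of the other replicate.

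Col-0 ethylene had 3 more peaks near EIN2 that the other 5 libraries did not have. One lay 87 bp outside the low end, at 787263 to 787341, with a fold enrichment of 2.87. The others lay 107 and 286 bp beyond the high end, at a fold enrichment of 2.21 and 2.22, and both overlapped the non-coding RNA gene AT5G03285.

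At EIN3, each ein3-1 eil1-1 library and Col-0 ethylene had 1 peak and Col-0 air had 3. The peaks shared a stretch of 51 bp, 7261974 to 7262024 on chromosome 3 (TAIR10), near the middle of the gene. Fold enrichment in ein3-1 eil1-1 was 1.82 and 2.39 in the ethylene replicates and 2.03 and 1.62 in the air replicates, so the treatments overlapped. The MACS2 -log10 p of these peaks was 3.43 and 5.88 in ethylene and 5.69 and 3.39 in air. Fold enrichment was 5.06 in Col-0 ethylene, with a -log10 p of 11.2, and between 2.99 and 4.38 in Col-0 air. The additional Col-0 air peaks lay at 7260773 to 7260934 and 7261318 to 7261405. In Col-0 ethylene only 4.64% of all peaks had a fold enrichment as high as the EIN3 peak, whereas in ein3-1 eil1-1 between 75.6% and 92.9% did.

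**Figure D3:**
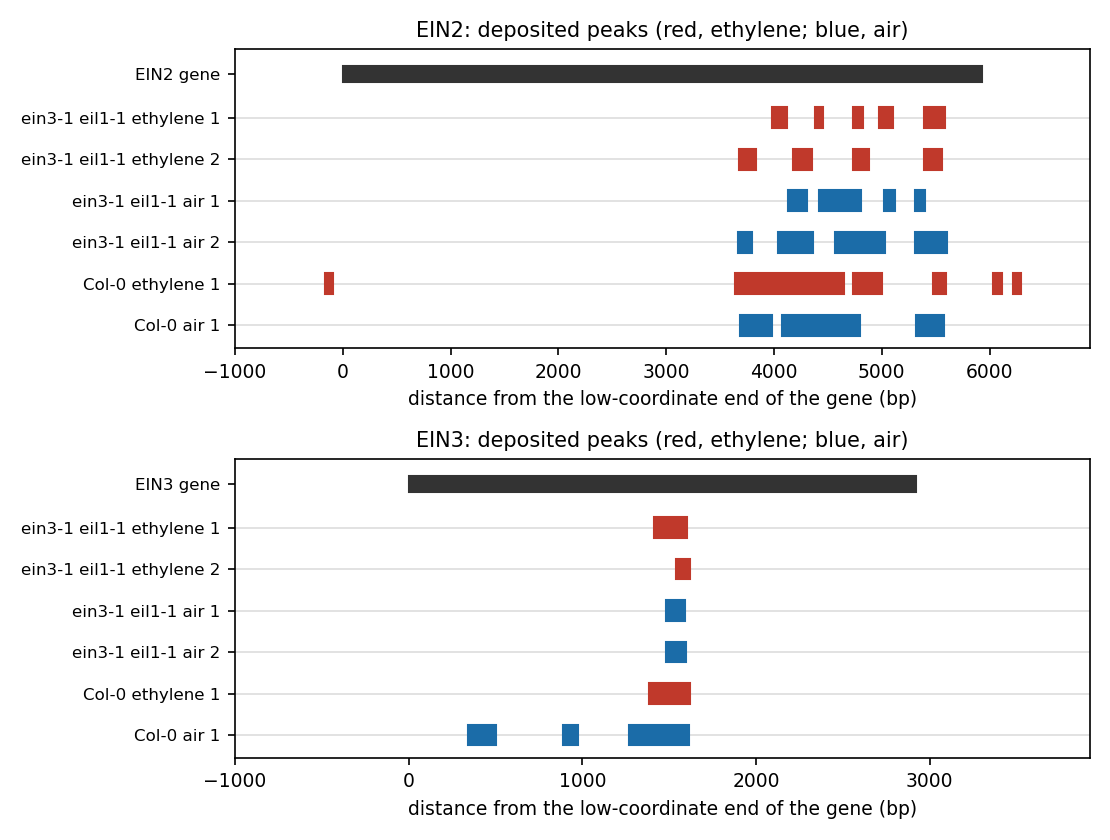
Position of every deposited peak in or within 1000 bp of EIN2 (top) and EIN3 (bottom), as distance from the low-coordinate end of the gene in bp, 1 row per ChIP library, with ethylene in red and air in blue. EIN2 peaks lie between 3639 and 5608 bp in each library, apart from 3 outside the gene in Col-0 ethylene, and every library has an EIN3 peak over the same stretch near the middle of that gene.

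Peaks in all 6 libraries were rare. Only 17 of 27444 protein-coding nuclear genes (0.0619%) had one in the gene or within 1000 bp, among them EIN2, EIN3 and the F-box gene EBF2. Per library, 2 and 4 of 6 members had a peak in ein3-1 eil1-1 ethylene, against 0.554% and 0.565% of all genes, and 2 and 2 in ein3-1 eil1-1 air, against 0.681% and 0.736%. In Col-0 3 of 6 members had a peak in ethylene, against 4.82% of genes, and 2 in air, against 3.1%. Both genes are also part of the transgene, and tags from the fusion and from the resident genes cannot be told apart.

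The input behind these peaks was not even. The input level that MACS2 used at a peak follows from its pileup and fold enrichment, and is given in multiples of the mean pileup over the genome. At EIN2 it was between 3.28 and 5.73 over the 4 ein3-1 eil1-1 libraries, and at EIN3 between 3.32 and 4.55. At EBF2 it was between 1.07 and 1.86 in the same libraries, and the median over all peaks was between 1.48 and 1.62. EIN2 and EIN3 values did not overlap those of EBF2 there. They were not alone in this: of the 17 genes with a peak in all 6 libraries, 6 others (AT1G40104, AT2G01008, AT2G01023, AT2G07565, AT2G08986 and AT3G41762) had input between 2.94 and 21.8 in ein3-1 eil1-1. EBF2 and the remaining 8 genes had values between 1.07 and 2.53. High local input was common among the peaks of these libraries, since 44.5% and 43.3% of peaks in the ethylene replicates and 23.8% and 23.1% in the air replicates stood at 3 times the mean or more. In Col-0 the peaks inside EIN2 were at 1.62 to 3.31, EIN3 at 1.23 to 1.75 and EBF2 at 1.40 to 2.83, and these ranges overlapped. The part of this high local input in the EIN2 and EIN3 peaks was not tested.

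**Figure D4:**
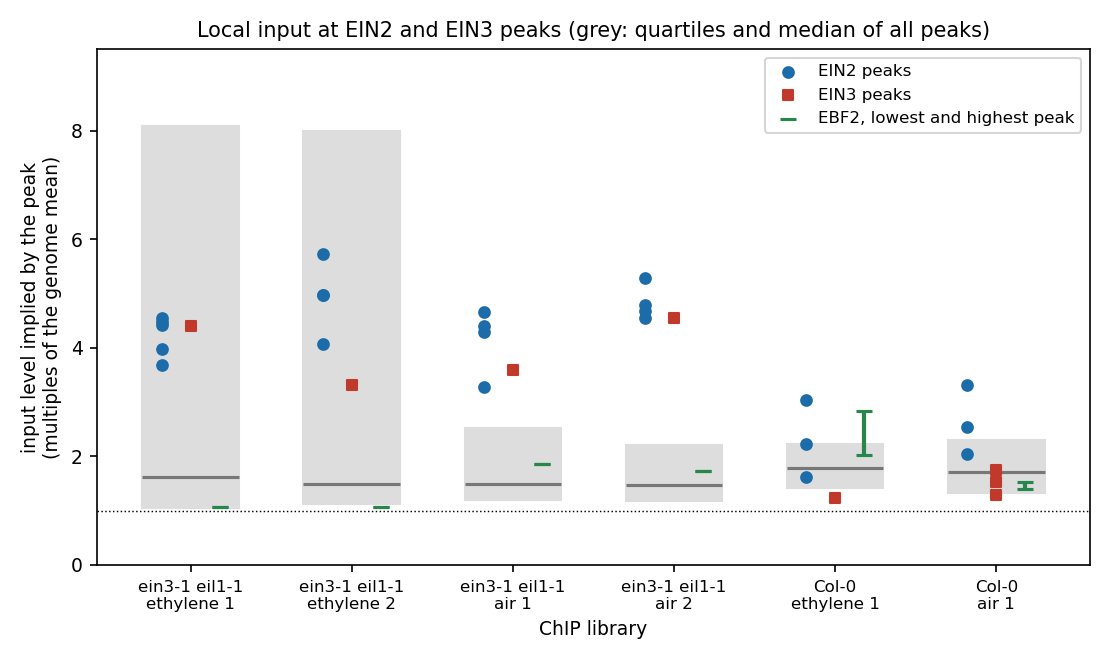
Input level implied at each peak, in multiples of the genome mean (dotted line at 1), by ChIP library: EIN2 peaks (circles), EIN3 peaks (squares), the range over EBF2 peaks (green) and the quartiles with the median of all peaks (grey). In the 4 ein3-1 eil1-1 libraries all EIN2 and EIN3 peaks stand at 3.28 or above, whereas EBF2 stays at 1.86 or below.

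The other members had peaks that no second library shared. In ein3-1 eil1-1 ethylene replicate 2, EIN5 had a peak at 20351476 to 20351552 with a fold enrichment of 3.61, ranking 8 of 275 by that value. Its pileup was only 17, and 60.7% of that library's peaks had a pileup as high. The implied input at this EIN5 peak was 1.0 times the genome mean. Replicate 1 had its nearest peak 12997 bp away. In the same library ETP2 had a peak 499 bp outside its low end, at 6521113 to 6521220, with a fold enrichment of 3.05 and AT3G18905 also within 1000 bp. EIL1 had a peak 489 bp beyond its high end in Col-0 ethylene, at 11548782 to 11548881, with a fold enrichment of 2.33 and AT2G00810 also within 1000 bp. In the other libraries the nearest peak to EIL1 was at least 160060 bp away. ETP1 had no peak nearer than 8171 bp, which was in Col-0 air.

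In ein3-1 eil1-1, EBF2 alone of the 46 pathway genes had a peak in both ethylene replicates and in air replicate 2, and EBF2 and AT5G10120 had one in air replicate 1. That is 2.17% of the list in 3 libraries and 4.35% in air replicate 1, against 0.554% to 0.736% of all genes. EBF2 there had a fold enrichment of 4.89 and 3.98 in the ethylene replicates and of 3.30 and 3.28 in the air replicates, above those of every EIN2 and EIN3 peak of the same libraries. In Col-0 6 of 46 pathway genes had a peak in ethylene (13.0%, against 4.82% of all genes) and 5 in air (10.9%, against 3.1%), and CTR1, EBF1 and EBF2 had one in both. The highest fold enrichment was 7.74 at EBF2 in Col-0 ethylene and 6.11 at EBF1, both higher than the 5.06 of EIN3 and the 4.93 of EIN2 in that library.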

How the data were processed

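RNA levels are FPKM from the authors' Cuffdiff (2.2.1, with TAIR10 as the build, per the submitters' processing notes), with replicates pooled to 1 value per line; no source at hand names the role of the aligner listed there. The deposited tables also hold, per the file headers, the log2 fold change of each gene with its p-value and q-value. As their values show, the genes listed have a minimum fold of 2 and q-values below 0.05; the minimum level of 1 is in the tables' names and does not hold for the line. Folds of the EIN2C-EIN3DBK245N table, deposited as Col over line, were turned to line over Col; percent of Col is 2 to the power of the fold. The 3 Col value columns belong to no sample at hand and were not used. Tables were scaled separately, so levels were compared within a table only. RNA depth is unknown.

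The authors called peaks with MACS2 (2.1.0.20150603; p-value limit 0.001), per the file headers, in each library against its input, with 1 tag kept per position; in ein3-1 eil1-1, 1 input served both replicates of each treatment. Each deposited list holds, for every peak, its pileup (signal), its fold enrichment (a ratio to the local input) and its -log10 p and -log10 q. The comment lines say that q was not calculated, although the q column holds values, so no count used it. Fragment lengths of 73 to 79 bp make peak edges approximate.

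A peak was counted at a member when it overlapped the locus of the deposited tables (TAIR10, 1-based) or 1000 bp on either side by at least 1 bp. For all other genes the loci of a TAIR10.1 gene table were used, with none of their coordinates printed; peak coordinates are those of the deposited files. Of 9647 loci in both, 88.5% had both ends within 1000 bp. Implied input is (pileup + 1) / fold enrichment - 1, divided by the mean pileup (tags times fragment length over 119000000 bp); MACS2 takes a local maximum, so it is an upper reading. All counting used Python 3.11.15, pandas 2.3.3 and numpy 2.4.6. Only the count of peaks per gene was tested on simulated intervals.

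No test of its own was run: RNA calls are those of Cuffdiff, and folds between lines share Col. The members, the 46-gene list and the rules were chosen with earlier results of these data known. Named were all members, the pathway genes among the 10 largest folds per line, and the 3 genes nearest in fold to each member. ASK1, COP1, MPK6, XRN2 and VCS were added after their values were seen. For 7 pathway identifiers the gene table gives no name. No sequence is printed. Alternatives were other limits on fold, level, q-value, flank and peak score, 2 centrings of the folds and each replicate alone.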

Additional observations from a re-analysis of the deposited data

How the results depend on the processing

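EIL1 and EIN3 kept their direction and a fold of at least 2 in each table that lists them under every centring tried. With a fold of at least 4, members listed as lower fell to 1 in EIN2C-EIN3DBK245N and 2 in EIN2S645A, and pathway genes to 4 lower and 0 higher in EIN2C-EIN3DB, 3 and 0 in EIN2C-EIN3DBK245N, and 6 and 2 in EIN2S645A. ETP2 was also lost with a line FPKM of at least 5 and with a q-value under 0.01, each leaving 1 member in EIN2C-EIN3DBK245N; the first left 9 lower pathway genes in EIN2S645A. Subtracting the median fold of listed genes moved folds by 1.01 to 1.11, because listed folds skip the range between -1 and 1, turned EIN5 to 0.061 and left EIN2 at -0.43, ETP1 at -0.20 and ETP2 at -0.019, all under 2-fold; the midpoint of the higher and lower medians, chosen after seeing the data, turned none. At a -log10 p of at least 5, 1 member had a peak in ein3-1 eil1-1 ethylene replicate 1 and in air replicate 2. At a fold enrichment of at least 4, 0 had one in all 4 ein3-1 eil1-1 libraries and 1 in Col-0 air. Leaving out a replicate gave 2 to 4 members with a peak in ein3-1 eil1-1 ethylene, 4 of them from replicate 2 alone, and 2 in air. Moving folds by the offset between tables was not run, since it shifts line and Col alike. No paired analysis was possible because the tables hold 1 pooled value per line and peaks were counted, not tested. The Col-0 libraries kept the fewest tags and had the most peaks. Their redundant rate, the share of tags removed as duplicates, was 0.56 in ethylene and 0.61 in air, against 0.2 to 0.3 in ein3-1 eil1-1. The effect of depth and of duplication on peak calls and fold enrichment was not tested.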
